A study of Mus musculus with 8 samples.

Results

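The miR-192, miR-194 and miR-215 clusters are a pair of duplicated loci that each encode 1 miRNA with the seed of miR-192 and 1 copy of miR-194. Their 7 mature miRNAs (both arms of miR-192 and miR-215, the shared 5p arm of miR-194 and the separate 3p arms of its 2 copies) were found by exact name among the 1881 mouse miRNAs of the array, and all 7 were present. They were measured in total RNA from whole kidneys of male mice aged 28 weeks on 8 single-colour Agilent miRNA arrays, 1 array per sample. The 4 db/db samples came from C57BLKS/J Iar mice labelled +Leprdb/+Leprdb, which lack a working long-form leptin receptor in every tissue and become obese and diabetic. The 4 control samples carry the strain label m+/m+ of the same background, the source label m/m and titles that say dbm, so it was not settled here whether they held a db allele. The labels list no treatment and do not say whether each sample was a separate animal. The p-values therefore measure the spread between these samples, which may be technical in part.

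As background, miRNAs guide Argonaute proteins to messenger RNAs through pairing of the seed, bases 2 to 8 counted from the 5′ end. In the gut, liver and kidney, hepatocyte nuclear factors drive transcription of these clusters, and p53 can induce them. In the kidney miR-192 and miR-194 are abundant in tubular epithelium, and miR-192 is known for repressing Zeb1 and Zeb2 in models of diabetic nephropathy, where its reported direction has differed between cell types. Whole kidney RNA mixes these cell types, and in such samples fewer cells of a type and less RNA per cell cannot be told apart.

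The mature sequences are shown because shared and differing bases decide what each probe can measure. Capitals mark the seed, and the sequences are from RefSeq on build GRCm38.p6, where all 7 members matched by name.
mmu-miR-192-5p: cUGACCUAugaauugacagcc
mmu-miR-215-5p: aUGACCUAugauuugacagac
mmu-miR-194-5p: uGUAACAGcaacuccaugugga
mmu-miR-192-3p: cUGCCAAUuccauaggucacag
mmu-miR-215-3p: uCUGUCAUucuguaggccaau
mmu-miR-194-1-3p: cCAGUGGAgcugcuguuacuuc
mmu-miR-194-2-3p: cCAGUGGGgcugcuguuaucug

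The 5p arms of miR-192 and miR-215 share the seed UGACCUA, and among 1679 mature mouse miRNAs of the RefSeq table they were the only 2 to hold it. Counted from the 5′ end of miR-192-5p, miR-215-5p differs by the substitutions C1A, A12U and C20A, of 21 bases. The seed GUAACAG of miR-194-5p was held by no other miRNA of that table. The 3p arms of the 2 miR-194 copies differ by A8G, C19U, U20C and C22G counted from the 5′ end of miR-194-1-3p, of which the first lies in the seed.

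On chromosome 19 the hairpin of miR-194-2 lies 115 bases before that of miR-192, on the plus strand and 2338 bases past the end of Atg2a. On chromosome 1 the hairpin of miR-194-1 lies 195 bases before that of miR-215, within the bounds of Iars2 and on the strand opposite to it. The hairpin of miR-192 is shown because its 2 arms, in capitals, are compared with each other within arrays.
Mir192: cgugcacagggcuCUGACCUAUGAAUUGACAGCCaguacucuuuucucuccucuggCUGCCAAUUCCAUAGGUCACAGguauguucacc
Per the array design (mm9), the longer miR-192-5p probe maps to chromosome 19, 6264860 to 6264877, and the longer miR-192-3p probe to 6264905 to 6264921, spans 1 base shorter than the probes. The longer miR-194-5p probe maps to chromosome 19, 6264664 to 6264679, and also to chromosome 1, 187137210 to 187137225. The signal of miR-194-5p is therefore the sum of both loci, while the other 6 members belong to 1 locus each.

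Each member is read by 2 probes of different length, with 15 spots per probe on each array. The probes of miR-192-5p and miR-215-5p are shown because these miRNAs are each other's nearest relatives. Capitals mark the bases of a probe that do not pair with the relative.
miR-192-5p, 18 bases: gGctgtcaaTtcataggt
miR-192-5p, 19 bases: gGctgtcaaTtcataggtc
miR-215-5p, 17 bases: gTctgtcaaAtcatagg
miR-215-5p, 18 bases: gTctgtcaaAtcataggt
Each of these 4 probes has 2 mismatches to the relative and fewer to no other mature miRNA of the table. All pair with the 3′ part of their miRNA, so that the 19-base probe covers bases 3 to 21 of miR-192-5p. The probes of miR-194-5p had at least 4 mismatches to any other mature miRNA.

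Of the 7 members, 3 were detected on all 8 arrays, by the call of the scanner software, and were tested: miR-192-5p, miR-192-3p and miR-194-5p. miR-194-2-3p was detected on 1 array, control replicate 4. The remaining 3, miR-194-1-3p, miR-215-5p and miR-215-3p, were detected on 0 of 8. Both arms that belong to the chromosome 19 hairpin of miR-192 were thus detected, and no product that belongs to the chromosome 1 locus alone was.

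The 4 probes of miR-215 gave processed signals about or below 0. The 17-base probe of miR-215-5p ranged from -4.10 to -1.48 over the 8 arrays and its 18-base probe from -3.72 to 0.10. For miR-215-3p the probes ranged from -2.99 to 0.155 and from -4.45 to 0.164. The negative control spots of these arrays had means of 5.06 to 7.01 and 95th percentiles of 10.7 to 14.3, so that miR-215 lay below the mean of the negative controls on each array. On the same arrays the 19-base probe of miR-192-5p gave 4423 to 6179 and its 18-base probe 2849 to 3672.

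The 3p arms of miR-194 were dim as well. The probes of miR-194-1-3p ranged from -3.04 to -0.800 (16 bases) and from -2.06 to 0.623 (17 bases). Those of miR-194-2-3p ranged from -2.31 to 2.34 (15 bases) and from 6.60 to 10.7 (16 bases).
miR-194-2-3p, 15 bases: cagataacagcagcc
miR-194-2-3p, 16 bases: cagataacagcagccc
These 2 probes differ by 1 base at the 3′ end and are shown because the 16-base one alone exceeded the mean of the negative controls, by 0.44 to 1.56 SD of those spots. It stayed below their 95th percentile on each array, and 0 of its 120 spots were well above background. No fold between the groups is given for these 4 members, which had no group with detection on all 4 arrays.

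**Figure D1:**
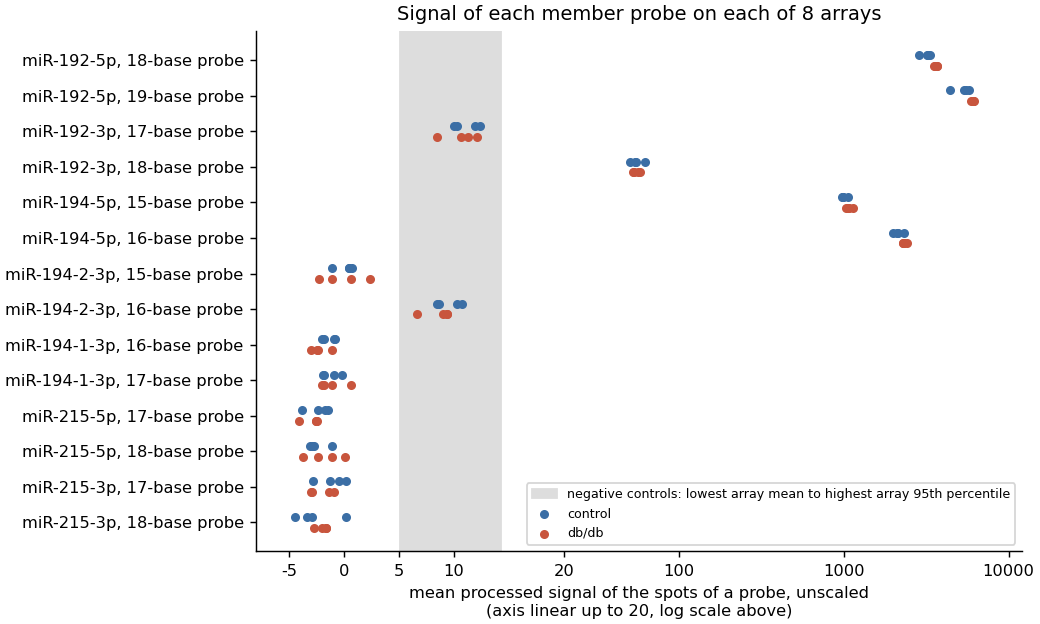
Mean processed signal of the spots of each of the 14 member probes, unscaled, on the 4 control (blue) and 4 db/db (red) arrays, on an axis that is linear up to 20 and logarithmic above. The 4 probes of miR-215 lie at or below 0.164, left of the grey range of the negative controls, while both probes of miR-192-5p lie at 2849 or more.

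For the comparison of groups, each array was scaled to give the 269 miRNAs detected throughout the same 75th percentile, and signals are given as log2 values. miR-192-5p, the 5p arm of the chromosome 19 hairpin, measured 12.01, 12.17, 12.13 and 12.07 across the control arrays, in the order of replicates 1 to 4. The db/db arrays, in the same order here and for the other members, measured 12.12, 12.22, 12.15 and 12.20. The 2 highest values were from db/db kidneys and the lowest was control replicate 1, but the groups overlapped. The change was 0.08 ± 0.05 (SE) on the log2 scale, a 1.06-fold difference with a 95% interval from 0.979-fold to 1.14-fold, and did not pass the test (limma with Benjamini-Hochberg adjustment over 316 miRNAs, adjusted p = 0.216).

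miR-194-5p, the product shared by both clusters, had a log2 signal of 10.71, 10.67, 10.68 and 10.65 on the control arrays. On the db/db arrays it had 10.66, 10.71, 10.65 and 10.67. Values of both groups ran from 10.65 to 10.71 and overlapped. The change was -0.01 ± 0.04 (SE), with a 95% interval from 0.940-fold to 1.05-fold (limma with Benjamini-Hochberg adjustment, adjusted p = 0.878). The SD within a group, pooled over both, was 0.027 on the log2 scale, and 1.27% of the tested miRNAs had a smaller one. Their median was 0.11.

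miR-192-3p, the other arm of the miR-192 hairpin, had a log2 signal of 5.14, 5.09, 5.07 and 5.14 on the control arrays. On the db/db arrays it had 4.98, 5.10, 4.91 and 4.90. Except for db/db replicate 2, which lay among the controls, the db/db arrays were below each control array. The change was -0.14 ± 0.05 (SE), or 0.907-fold with a 95% interval from 0.832-fold to 0.989-fold, and it did not pass after adjustment (limma with Benjamini-Hochberg adjustment, adjusted p = 0.0686, unadjusted p = 0.0321). Without db/db replicate 2, the array that overlapped the controls, it was -0.18 ± 0.05 (SE) and passed (limma with Benjamini-Hochberg adjustment, adjusted p = 0.0185). With any other single array left out it did not pass (adjusted p = 0.0898 to 0.172, same test).

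**Figure D2:**
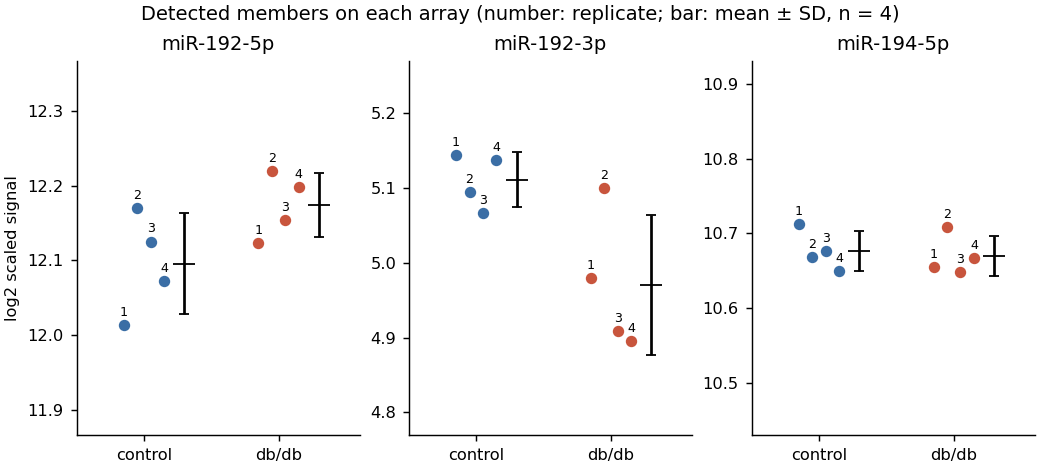
Log2 scaled signal of the 3 members detected on all arrays, by group, with the replicate number at each point and the mean ± SD (n = 4) beside it; each panel spans 0.5 on the log2 scale. Control and db/db values overlap in each panel, and db/db replicate 2 (5.10) is the db/db value of miR-192-3p that lies among the controls.

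In all, 0 of the 3 tested members were called in the db/db comparison. Of all 316 tested miRNAs, 41.8% were called (24.4% higher and 17.4% lower in db/db kidneys), and for 41.5% the groups did not overlap, which held for 0 of the 3 members. At an unadjusted p under 0.05, miR-192-3p was the 1 member below the threshold.

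The call depended on how arrays were scaled. With scaling to the labelling spike-ins, RNAs added before labelling, the median of all tested miRNAs moved from -0.02 to 0.16. miR-192-5p then had a change of 0.26 and miR-194-5p of 0.17, and both passed (adjusted p of 0.0245 and 0.0471 by limma with the Benjamini-Hochberg method), while miR-192-3p turned to 0.04. Measured from that median, the changes were 0.10, 0.02 and -0.12 for miR-192-5p, miR-194-5p and miR-192-3p under both scalings. They are equal by construction, as each scaling applies 1 factor to a whole array and so moves the members and the median alike. With quantile normalization miR-192-5p turned to -0.03, and miR-192-3p passed as lower with -0.16 (adjusted p = 0.0339). miR-192-3p also passed as lower in the authors' deposited table of values, with -0.32 (adjusted p = 0.0251), and with the brighter probe alone, with -0.20 (adjusted p = 0.0125). The median of all tested miRNAs was -0.09 in that table and -0.07 with the brighter probes. Over all 27 settings the adjusted p by limma ranged from 0.0245 to 0.962 for miR-192-5p, from 0.0125 to 0.962 for miR-192-3p and from 0.0471 to 1 for miR-194-5p. The values of 0.962 came from taking the 75th percentile over all miRNAs, detected or not. Of 1881 miRNAs 289 to 358 were detected on an array, so most miRNAs behind this percentile were undetected. In that setting the SE was 0.247 for each of the 3 members, against 0.036 to 0.054 in the reported setting.

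**Figure D3:**
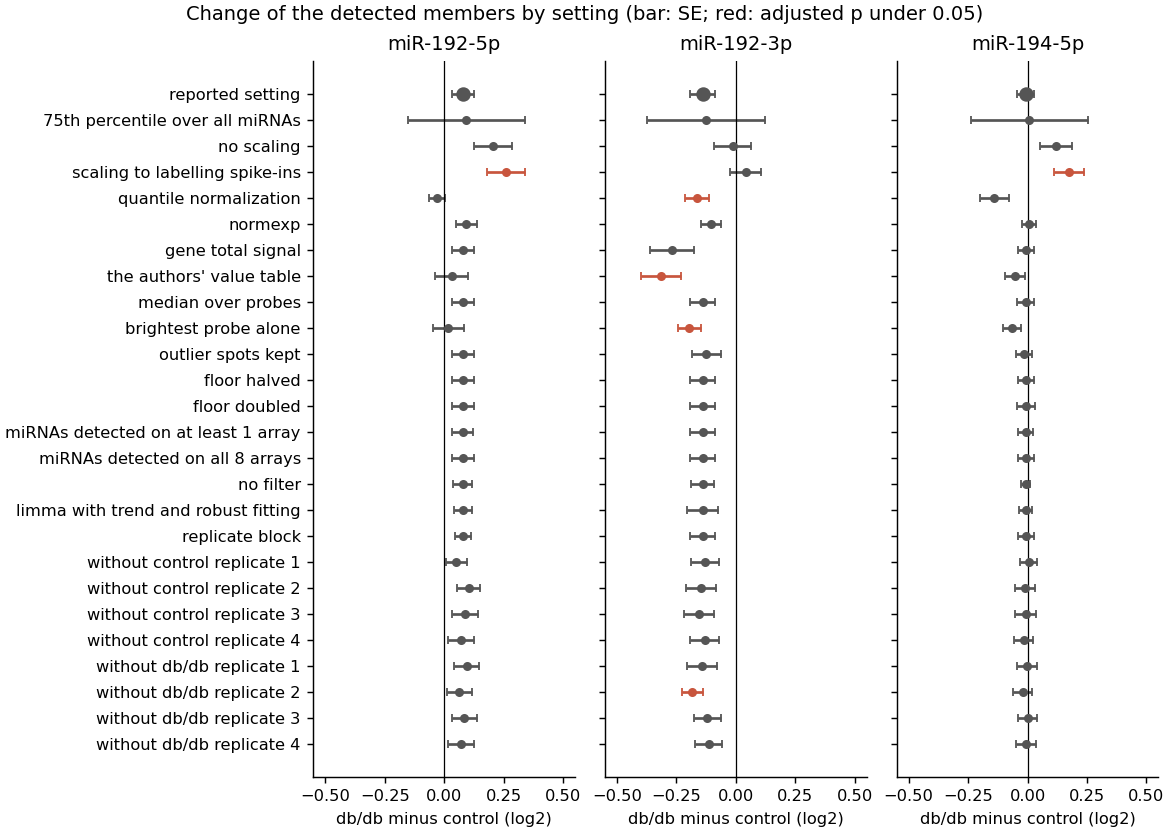
Change of the 3 detected members between db/db and control kidneys (log2, points with SE) in the reported setting, at the top, and in 25 alternatives; red points have an adjusted p under 0.05. Scaling to labelling spike-ins moves all 3 members to the right, with 0.26 for miR-192-5p, and miR-192-3p lies left of 0 in the other settings.

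The 2 probes of each member were also fitted apart, among 696 probes of which 39.8% were called. The 18-base and 19-base probes of miR-192-5p had changes of 0.07 and 0.09, and the 16-base and 15-base probes of miR-194-5p of 0.0014 and -0.03. None of these 4 passed (limma with Benjamini-Hochberg adjustment, adjusted p = 0.157 to 1). Spots of 1 probe on 1 array varied with a median coefficient of variation of 3.12% to 3.96% for miR-192-5p and of 2.99% to 3.20% for miR-194-5p.

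For miR-192-3p the 2 probes stood differently against background.
miR-192-3p, 17 bases: ctgtgacctatggaatt
miR-192-3p, 18 bases: ctgtgacctatggaattg
They differ by 1 base at the 3′ end and are shown because the measurement of this arm rests on the longer one. All 120 spots of the 18-base probe were well above background, with signals from 50.3 to 61.9 before scaling, and its change was -0.13 ± 0.04 (SE; limma with Benjamini-Hochberg adjustment over probes, adjusted p = 0.0520). The 17-base probe lay between 8.44 and 12.4, and exceeded the 95th percentile of the negative controls on 3 of 8 arrays, with 3 of 120 spots well above background. Its change was -0.20 ± 0.13 (SE; limma with Benjamini-Hochberg adjustment, adjusted p = 0.251). Spots of the longer probe varied with a coefficient of variation of 6.80% to 13.4%, and spots of the shorter one with 20.6% to 46.8%.

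Differences within an array do not depend on a factor that scales the whole array, so they ask whether members changed alike. The level of such a difference depends on the probes and only its shift between groups is compared. The log2 signal of miR-192-5p minus that of miR-192-3p was 6.87, 7.08, 7.06 and 6.93 on the control arrays. It was 7.14, 7.12, 7.25 and 7.30 on the db/db arrays. The lowest db/db value thus lay above the highest control value. The shift was 0.22, the 5p arm being higher relative to the 3p arm in db/db kidneys (exact permutation test over 70 assignments, 2-sided, p = 0.0286, the smallest this design can give; 0.0571 after Benjamini-Hochberg adjustment over 2 pairs). It missed the threshold after adjustment. Being at the smallest p, it could pass over 2 pairs only if the other pair reached that p too. The shift was 0.25 without control replicate 2, the control array nearest to the db/db arrays (adjusted p = 0.0286 for both pairs, exact permutation test). With any other single array left out it did not pass (adjusted p = 0.0571 to 0.114, exact permutation test). It was 0.35 with the scanner's total gene signal and in the authors' deposited table (adjusted p = 0.0571 in each, exact permutation test). These 2 are not separate results. In both, miR-192-5p, miR-192-3p and miR-194-5p had changes of 0.118, -0.231 and 0.0320 measured from the median of all tested miRNAs. With quantile normalization, which was added after the data were seen, the shift was 0.13 (adjusted p = 0.171, exact permutation test).

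The difference of miR-194-5p, a sum of both loci, minus miR-192-5p, from chromosome 19 alone, was -1.30, -1.50, -1.45 and -1.42 on the control arrays. It was -1.47, -1.51, -1.51 and -1.53 on the db/db arrays. Control replicate 2 lay among the db/db arrays. The shift of -0.09 did not pass (exact permutation test, 2-sided, p = 0.0571, also after adjustment). It was -0.11 without control replicate 2 (adjusted p = 0.0286, exact permutation test), and -0.05 without control replicate 1. With any single array other than control replicate 2 left out it did not pass (adjusted p = 0.0571 to 0.143, exact permutation test).

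**Figure D4:**
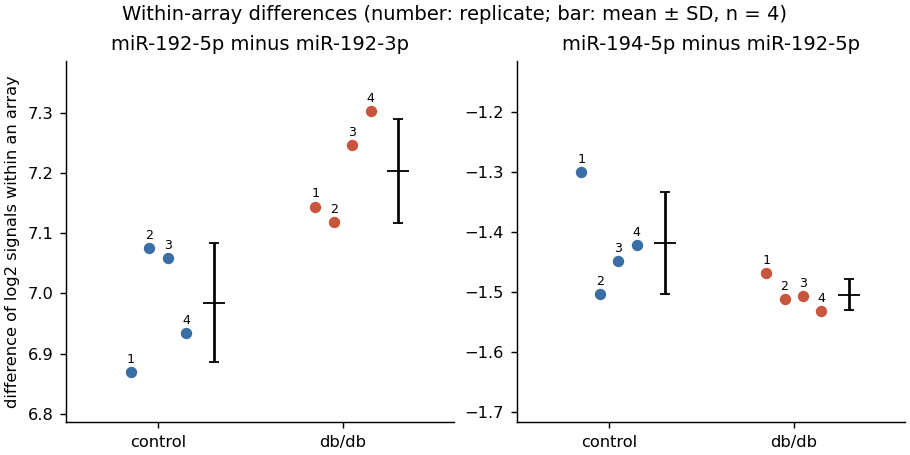
Difference of log2 signals within each array for 2 pairs of members, by group, with the replicate number at each point and the mean ± SD (n = 4) beside it. For miR-192-5p minus miR-192-3p the db/db arrays start at 7.12 and the control arrays end at 7.08; for miR-194-5p minus miR-192-5p control replicate 2 (-1.50) lies among the db/db arrays.

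The miRNAs whose values over the 8 arrays were most like those of a member were found by the root mean square difference of log2 profiles, each centred on its own mean. Nearest to miR-192-5p were miR-200b-3p (0.0306), miR-429-3p (0.0341) and miR-361-5p (0.0368), where the median distance of all tested miRNAs was 0.155. Nearest to miR-194-5p were miR-196b-5p (0.0291), miR-15a-5p (0.0331) and miR-200a-3p (0.0339), with a median of 0.139. Nearest to miR-192-3p were miR-185-5p (0.0487), miR-22-3p (0.0527) and miR-22-5p (0.0545), with a median of 0.149. Between members the distance was 0.0693 for miR-192-5p and miR-194-5p, and 0.136 for the 2 arms of miR-192. These 9 neighbours were not called, but they were picked for likeness to uncalled members on the same arrays, so this is no separate result.

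Other kidney miRNAs were set beside the members. The miR-200 family represses Zeb1 and Zeb2, and with miR-216a and miR-217 it is known to lie downstream of miR-192 in mesangial cells. Of these 7 miRNAs, 5 were tested. In the db/db kidneys 2 rose and 0 fell, a share near the 41.8% called among all tested miRNAs, with a median of 0.10 against -0.02 for all. The 2 were miR-141-3p (0.36 ± 0.07, SE) and miR-200c-3p (0.42 ± 0.08, SE). The other 3, miR-200a-3p, miR-200b-3p and miR-429-3p, had changes of 0.01, 0.07 and 0.10, and a difference between members was not tested. The list had 0 calls with the percentile taken over all miRNAs and 5 with spike-in scaling, where 10.8% and 52.8% of all tested miRNAs were called. Of 11 miRNAs tied to the diabetic kidney, 10 were tested, 1 rose and 2 fell, with a median of -0.04; of all tested miRNAs 24.4% were higher and 17.4% lower. The p53-induced miR-34a-5p was higher by 0.64 ± 0.09 (SE). miR-146a-5p, which NF-kB induces, fell by 1.49 ± 0.13 (SE), and miR-132-3p fell by 0.75 ± 0.13 (SE). Over these 5 the adjusted p was 0.000137 to 0.00519 (limma with Benjamini-Hochberg adjustment). miR-132-3p was detected on 4 control and 3 db/db arrays and entered the test through the controls, so its fall is no support. With detection on all 8 arrays required, 9 of the diabetic kidney list were tested, 1 rose and 1 fell. The median of this list turned to 0.09 without scaling and to 0.14 with spike-in scaling. Relative to all tested miRNAs it was -0.02 under both, which is fixed by construction.

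Markers of cell types gave the setting of these values. All 8 listed tubule-enriched miRNAs were called higher, against 24.4% of all tested miRNAs, with a median of 0.23. Besides miR-204-5p they are the 5p arms of miR-30a to miR-30e and of miR-10a and miR-10b, so they are not 8 separate markers. Probes within these families were not checked against each other. miR-192-5p and miR-194-5p, also abundant in tubular epithelium but not on this list, were not called. Among the 8 were miR-204-5p (1.05 ± 0.04, SE), miR-30d-5p (0.30 ± 0.03, SE) and miR-10b-5p (0.27 ± 0.05, SE). The number called was 1 with the percentile over all miRNAs, 3 with quantile normalization, 4 with the brighter probe alone and 5 in the authors' deposited table, with a positive median in each. Of all 316 tested miRNAs, 23, 68, 61 and 57 were called higher in these settings, in the same order. The summed signal of the 8 tubule-enriched miRNAs was 16493 to 17837 in control and 19353 to 20580 in db/db kidneys. Of 5 leukocyte miRNAs 4 were lower, against 17.4% of all tested miRNAs, with a median of -1.16 (-0.46 with normexp background correction). Among them miR-150-5p was detected on 4 control arrays and 1 db/db array. It entered the test through the controls, so its fall is no support. With detection on all 8 arrays required, 4 were tested and 3 were lower, with a median of -0.99, where 46 of all 269 were lower. These 3 were both arms of miR-142a and miR-223-3p. The summed signal of the 5 was 469 to 623 in control and 212 to 305 in db/db kidneys. The 2 endothelial, 2 smooth muscle and pericyte and 2 erythroid miRNAs were not called in the reported setting. Both endothelial miRNAs were called lower with the brighter probe alone and with robust limma fitting, where 88 and 61 of all 316 tested miRNAs were lower. In the authors' deposited table, with normexp and with the replicate block 1 of 2 was lower (54, 63 and 63 of 316 for all). The same held with detection on at least 1 array (52 of 390 for all). It also held without control replicate 1, control replicate 3 or db/db replicate 1 (56, 53 and 46 of 316 for all). The median of the endothelial pair was 0.05 with spike-in scaling. The endothelial pair had a summed signal of 3913 to 4194 in control and 3648 to 3807 in db/db kidneys, the smooth muscle and pericyte pair of 452 to 519 and 452 to 508, and the erythroid pair of 703 to 3058 and 646 to 3564. Of 4 miRNAs listed for liver, intestine and endocrine tissue, 2 were tested, and they entered the test through the db/db arrays, on all 4 of which they were detected, so their count is no support. With detection on all 8 arrays required, 0 of the 4 were tested, and with normexp the median of the 2 was 0.92 in place of 3.78. They were the hepatocyte marker miR-122-5p, which was at the lower limit of 1.48 on each control array, and detected on 0 of them, and miR-802-5p, detected on 3 control arrays, with 3.61 ± 0.08 (SD, n = 4) for the controls and 6.18 ± 0.28 (SD, n = 4) for the db/db samples. The part of these cell types in the values of the members was not tested. Slide row 1 held the control arrays and row 2 the db/db arrays, so row and genotype cannot be told apart. Replicates 1 to 4 of each group lay in slide columns 1 to 4, so replicate number and column cannot be told apart either.

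**Figure D5:**
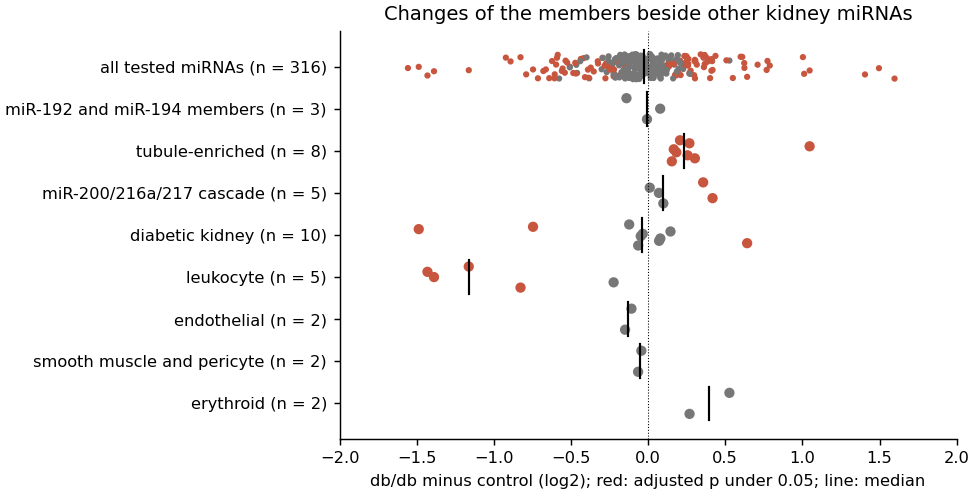
Change between db/db and control kidneys (log2) for all 316 tested miRNAs, the 3 tested members and the lists named in the text; red points have an adjusted p under 0.05, black lines are medians, and 13 of the 316 lie beyond the axis limit of 2. The 3 members lie between -0.14 and 0.08, and the 8 tubule-enriched miRNAs between 0.15 and 1.05.

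Across the 8 arrays 289 to 358 miRNAs were detected, and 0 miRNA spots were saturated. Correlations of log2 values across the tested miRNAs, which are not independent replicates, ran from 0.989 to 0.997 for arrays of 1 group and from 0.964 to 0.979 for arrays of different groups.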

How the data were processed

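The authors deposited scanner files that hold an intensity for each spot, made with Agilent Feature Extraction 12.0.3.1 according to the submitters' processing notes. They also deposited their own values, 1 ratio on a linear scale per array and miRNA, of unstated scaling. Detection, outlier and saturation flags (other columns) are per the file headers. Processed signals were averaged over non-outlier spots of a probe, then over the probes of a miRNA. Arrays were scaled to an equal 75th percentile, taken over 269 miRNAs detected throughout, with a floor of 2.80 (1.48 as log2). The 316 miRNAs detected in every sample of 1 group or of both were then fitted by limma 3.58.1 in R 4.3.3 (files read with data.table, version 1.17.8), 2-sided, with Benjamini-Hochberg adjustment and a threshold of 0.05. The number of arrays limits the precision. Sequences were matched in Python 3.11.15 with pandas 2.3.3. The limma fit alone was tested on simulated data. Alternatives changed the scaling, signal, probe summary, floor, filter, variance model and samples.

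The members and lists were chosen with earlier results of these data known. All 7 members were named, with up to 4 miRNAs of a list and the 3 nearest neighbours of each detected member. Shared numbers in the titles were not taken to pair samples.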

Additional observations from a re-analysis of the deposited data

How the results depend on the processing

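The members and all tested miRNAs were recomputed in 25 alternatives, with 2 more per member in the fit of single probes. The count of called members was 0 in 20 of the 25. It was 2 with spike-in scaling, and 1 with quantile normalization, in the authors' deposited table, with the brighter probe alone and without db/db replicate 2 (0 to 1 over arrays left out). Of 316 tested miRNAs 41.8% were called in the reported setting and 34 (10.8%) with the percentile over all miRNAs. Without a filter 97 of 1881 (5.16%) were called, and in the other 23 alternatives 35.1% to 52.8%. Of the called miRNAs 78.1% were higher with no scaling, 83.2% with spike-in scaling, 46.6% with quantile normalization and 40.9% with the brighter probe, against 58.3%.

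miR-192-5p had a change of 0.259 with spike-in scaling and -0.0296 with quantile normalization. miR-192-3p had a change of 0.0408 with spike-in scaling, -0.0132 with no scaling, -0.163 with quantile normalization, -0.270 with the total gene signal, -0.317 in the authors' deposited table and -0.196 with the brighter probe, and of -0.183 to -0.115 with single arrays left out. miR-194-5p, near 0 in the reported setting, changed sign with the percentile over all miRNAs (0.0069), no scaling (0.120), spike-in scaling (0.174), normexp (0.0064) and the 16-base probe alone (0.0014), was -0.139 with quantile normalization, and ranged from -0.0201 to 0.0048 with single arrays left out. Within arrays, miR-192-5p minus miR-192-3p shifted by 0.180 to 0.249, and miR-194-5p minus miR-192-5p by -0.113 to -0.0463, with single arrays left out; quantile normalization was added here after the data were seen. The causes were not tested.

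With the replicate block, which is also a block by slide column, 45.6% of tested miRNAs and 0 members were called (limma with Benjamini-Hochberg adjustment, adjusted p = 0.0781 for miR-192-3p). Deviations of same-numbered arrays correlated at -0.43 to 0.41 across miRNAs, so the numbers were not taken to pair samples.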
